A study of Drosophila melanogaster with 3 samples.

Results

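The genes described here are those of mitosis and of the spindle checkpoint in *Drosophila melanogaster*. A list of 40 symbols was matched to the symbols of the deposited table, and 39 of them were found among its 15603 genes. They cover the mitotic cyclins and Cdk1, the Cdc25 phosphatases, mitotic kinases, the chromosomal passenger complex, the spindle checkpoint, the anaphase-promoting complex (APC/C), securin and separase, kinetochores, spindle motors, condensin and cytokinesis, 11 roles in all. The remaining symbol, *fzr*, is carried in the table under its older name *rap*. That gene was kept out of the counts and is described with the APC/C.

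RNA was measured in 3 libraries of the eye-antennal disc (EAD), the larval tissue that forms the eye, the antenna and part of the head, and each group has 1 library. The tumor library comes from GFP+ cells of *RasV12; scrib-/-* tumors. The larvae of these tumors carry *ey-flp* over *y,w*, the transgene *UAS-RasV12*, the driver *Act>y+>Gal4* with *UAS-GFP*, and *Frt82B scrib2* over *Frt82B, tubGal80*, so that clones made by eyeless-driven flippase lose *scrib* while they express oncogenic Ras and GFP. The tumor microenvironment (TME) library comes from the GFP- cells of tumor-bearing discs and has the same genotype label. The control library, labelled *GMRGFP*, comes from GFP+ cells of *GMR>GFP* discs, in which the GMR driver is active behind the morphogenetic furrow. All 3 libraries are labelled as batch 1, as untreated, and as made from 50 discs of wandering larvae at Day 6. Each group is therefore a pool of discs, the flippase can also make clones in the optic lobes that lie against the discs, and the control differs from the tumor in its driver, and by that driver in region of the disc, as well as in *Ras* and *scrib*.

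Cells enter mitosis when Cdk1, bound to cyclin A or B, is activated by a Cdc25 phosphatase. The spindle checkpoint then holds back the APC/C until every kinetochore is attached to microtubules. Once it is released, cyclins and securin are destroyed, separase opens the sister chromatids, and the spindle midzone directs the furrow that divides the cell. In the eye disc of the third larval stage, progenitors divide ahead of the morphogenetic furrow, and behind it a last round of divisions, the second mitotic wave, precedes differentiation. Most transcripts of these genes are made in dividing cells and are scarce in differentiated ones.

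Values are FPKM, fragments per kilobase of transcript corrected for depth, so levels can be compared between genes as levels per length. A gene passed the 2-fold rule when its FPKM was above 5 in the higher library and 2 or more times its FPKM in the other one. With 1 library per group there is no replicate error, and no test between groups was possible. The intervals given with ratios are exact 95% Clopper-Pearson intervals on estimated fragments, and they cover counting error only, not the spread between larvae or preparations. In bulk RNA of this kind, fewer cells of a type and less RNA per cell cannot be told apart. Where a ratio stands in parentheses after the levels of a gene, it is tumor over control unless another comparison is named, and its interval follows it. The 3 comparisons also share libraries, so each gene's 3 ratios are not independent of each other.

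As estimated from the steps of low FPKM values, the tumor library holds about 1840744 fragments, the TME library 11008441 and the control library 1764188. A 2000 nt transcript at 5 FPKM is then read by about 17.0 fragments in tumor cells, 103 in TME cells and 16.5 in control cells. *Ras85D*, the gene whose activated form the clones express, was at 327 FPKM in tumor cells, 118 in TME cells and 139 in control cells. *scrib* was at 51.0 FPKM in tumor cells, 44.6 in TME cells and 36.2 in control cells, and the sources used here do not say whether the *scrib2* allele lowers its RNA. The 8 marker genes of the eye-antennal disc were present in all 3 libraries (summed FPKM 507 in tumor cells, 471 in TME cells and 321 in control cells). The summed level of 7 genes of the retina behind the furrow was not higher in the control library, whose driver is active in that region (summed FPKM 30.7 in tumor cells, 51.7 in TME cells and 22.0 in control cells). *gl* was at 16.1 FPKM in tumor cells, 29.6 in TME cells and 11.6 in control cells, *sev* at 3.60 in tumor cells, 7.21 in TME cells and 3.88 in control cells, and *lz* at 4.60 in tumor cells, 5.22 in TME cells and 1.53 in control cells. *chp* (1.92) and *boss* (0.197) were also low in control cells, while neuronal genes were high there, so whether the control library holds only cells from behind the furrow is unclear, and with it what each ratio over the control compares.

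None of the 39 genes was listed at 0 in any library, and 37 of them were above 5 FPKM in all 3, the exceptions being *twe* and *cid*. The median level was 38.5 FPKM in tumor cells, 32.2 in TME cells and 28.2 in control cells. Summed over the 39 genes the level was 2043 FPKM in tumor cells, 1485 in TME cells and 1140.2 in control cells. *polo* had the highest level of the 39 in every library, and the lowest was *twe* in the tumor and TME and *cid* in the control.

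**Figure D1:**
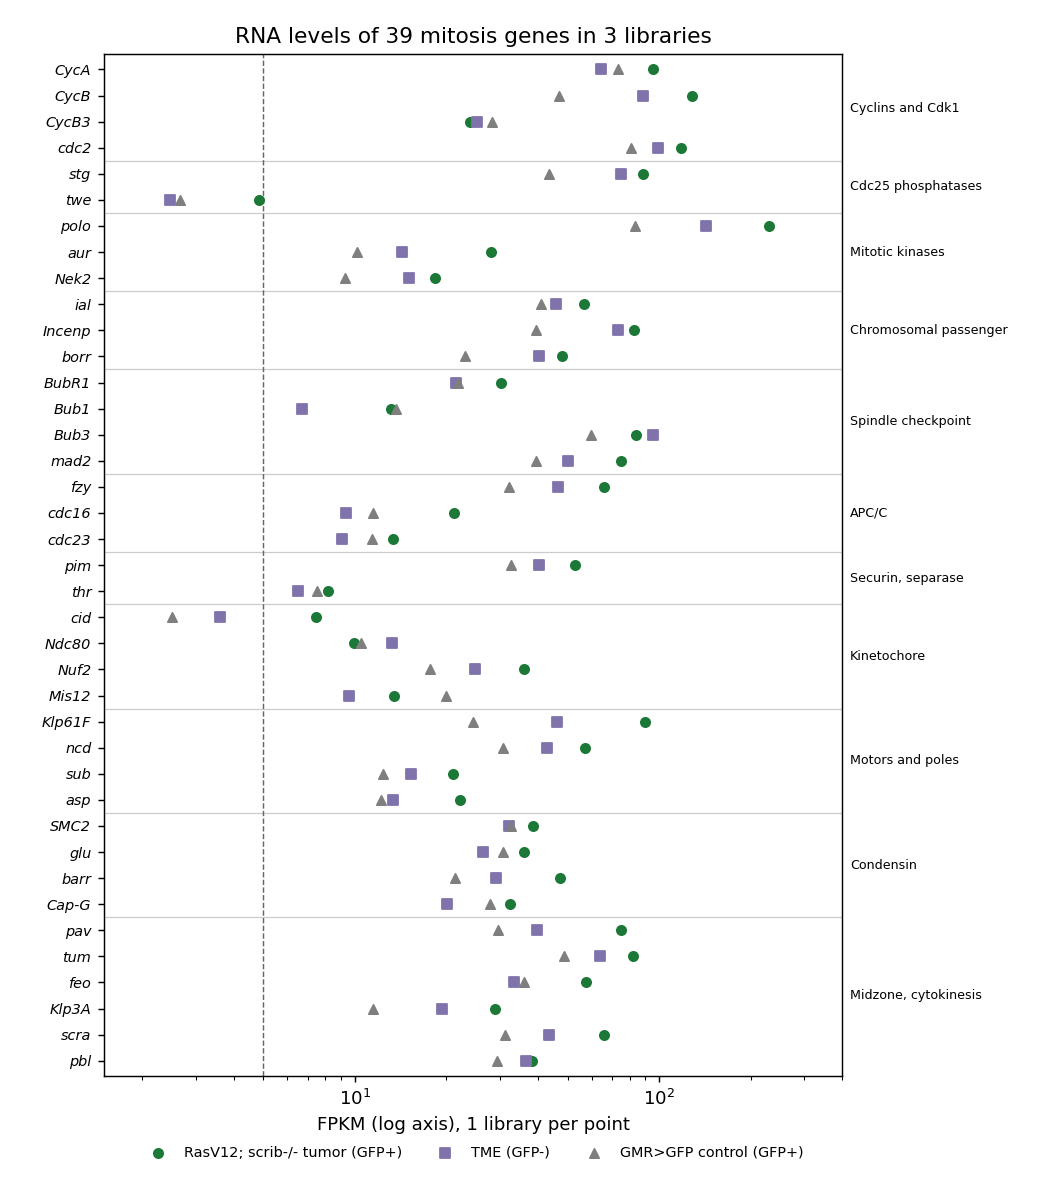
FPKM of 39 mitosis genes (log axis), with 1 point per gene for the tumor (circle), TME (square) and control (triangle) libraries, grouped by role; the dashed line marks 5 FPKM. The circle lies to the right of the triangle for most genes, with *polo* the farthest right at 229.6 FPKM in tumor cells, and *twe* and *cid* are the genes with points left of the line.

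The RNA of mitosis genes was on the whole higher in *RasV12; scrib-/-* tumor cells than in *GMR>GFP* control cells. Of 38 members above 5 FPKM in at least one of the 2 libraries, 14 passed the 2-fold rule as higher in the tumor, and 0 as lower. Over all 7985 genes above that floor, 12.4% were called higher and 20.2% lower, against 36.8% and 0% of the members. A ratio above 1, of any size, was found for 34 of the 38, and for 48.8% of all genes above the floor. The median log2 ratio of FPKM + 1 was 0.74 for the members and -0.07 over all 9523 genes with a mean of at least 1 FPKM, a gap of 0.81. In descending order of ratio the 14 genes were *Klp61F*, *cid*, *polo*, *aur*, *CycB*, *pav*, *Klp3A*, *barr*, *scra*, *Incenp*, *borr*, *fzy*, *Nuf2* and *stg*.

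The counting intervals rest on the same values as the calls, so they are no separate support for the calls. For 13 of the 14 genes the interval lay above 1, and *cid*, with about 4 control fragments, was the exception. Ratios of 6 of them were so near 2 that scaling the libraries by their median ratio, which shifts log2 ratios of tumor over control by -0.11, left 8 calls, without *stg*, *Incenp*, *borr*, *fzy*, *Nuf2* and *scra*. At a ratio of at least 3, *Klp61F* alone remained, and at 1.5 the count was 23.

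Marker genes of other cells also differed between these libraries. All 9 neuronal markers were past the rule as lower in tumor over control (summed FPKM 26.9 in tumor cells and 391 in control cells, with *elav* at 6.79 in tumor cells and 57.3 in control cells and none at 0), as were 10 of 11 hemocyte markers (summed FPKM 52.4 in tumor cells and 515 in control cells, none at 0). Of 6 fat body markers, 4 were listed at 0 in tumor cells and 1 in control cells (summed FPKM 0.716 in tumor cells and 53.0 in control cells). Of 6 glial markers 3 were lower, with *repo* at 3.06 FPKM in tumor cells and 27.5 in control cells, and 1, *moody*, was higher (2.08). Of 6 muscle and myoblast markers, *twi* (ratio 0.126) and *htl* (0.0594) were lower and *sls* (3.61) was higher. *Mhc* (3.42), *Mef2* (1.19) and *up* (0.456) did not pass the rule. All 8 markers of the eye-antennal disc went with the members, with ratios above 1 and a median log2 ratio of 0.64. The 4 tracheal genes were split, with *Gasp* (3.84) and *pio* (3.67) higher. *trh* (0.461) and *btl* (0.552) had ratios below 1 and were under the floor in both libraries. The part of these marker genes in the result was not tested.

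**Figure D2:**
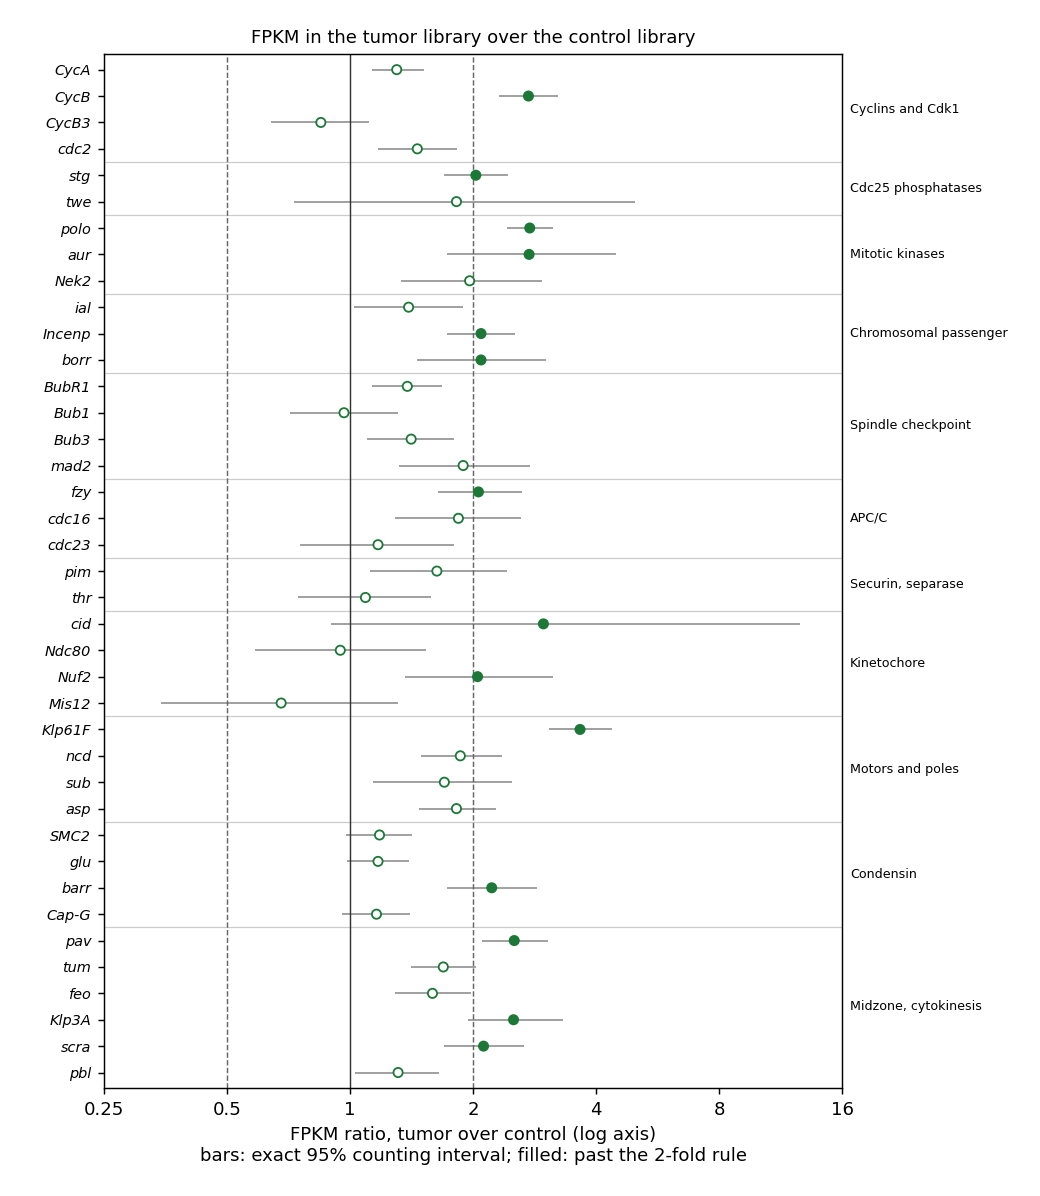
Ratio of FPKM in the tumor library over the control library for each of 39 genes (log axis), with exact 95% counting intervals as bars; filled circles passed the 2-fold rule, and dashed lines mark ratios of 0.5 and 2. *Klp61F* has the highest ratio, 3.65, the interval of *cid* reaches 12.6, and no circle lies left of 0.5.

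Among the cyclins, *CycB* stood apart from *CycA* and *CycB3*. *CycB*, which encodes the main B-type partner of Cdk1 in mitosis, was at 128 FPKM in tumor cells, 88.8 in TME cells and 46.8 in control cells. Its ratio was 2.73 in tumor over control (2.31 to 3.22) and 1.90 in TME over control (1.64 to 2.20), so the control was low and both libraries of the tumor-bearing discs were high. *CycA*, whose product acts at the entry into mitosis, was at 95.8 FPKM in tumor cells, 64.2 in TME cells and 73.4 in control cells, a tumor over control ratio of 1.30 (1.13 to 1.52). *CycB3*, which encodes a cyclin destroyed later in anaphase, was at 23.9 FPKM in tumor cells, 25.3 in TME cells and 28.2 in control cells, with no ratio whose interval excluded 1. Within a library, the level of *CycB* was 1.33 times that of *CycA* in the tumor, 1.38 times in TME cells and 0.637 times in control cells, a pair chosen after the values were seen. *cdc2*, the gene for Cdk1, was at 118 FPKM in tumor cells, 99.4 in TME cells and 80.8 in control cells, and its ratio of tumor over control was 1.46 (1.17 to 1.83).

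*stg* (*string*) encodes the Cdc25 phosphatase that times mitosis in most larval cells. Its level was 88.4 FPKM in tumor cells, 75.1 in TME cells and 43.6 in control cells, a ratio of 2.03 in tumor over control (1.70 to 2.43), just past the rule, and 1.72 in TME over control (1.49 to 2.01). *twe* (*twine*), the Cdc25 gene of meiosis, was at 4.84 FPKM in tumor cells, 2.48 in TME cells and 2.66 in control cells, on about 15 fragments in tumor cells, 46 in TME cells and 8 in control cells. It was under the floor in all 3 libraries, and a difference between tumor and control was not detectable at this depth (0.727 to 4.98). Germline markers were low but not absent (summed FPKM 8.41 in tumor cells, 9.68 in TME cells and 11.3 in control cells over 7 genes), with *bam* at 3.24 FPKM in tumor cells, 2.86 in TME cells and 6.36 in control cells, and *aub* at 3.24 in tumor cells, 6.08 in TME cells and 3.74 in control cells.

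The mitotic kinases were among the genes with the largest differences. *polo*, the founding Polo-like kinase gene, was at 229.6 FPKM in tumor cells, 142 in TME cells and 83.4 in control cells. The tumor level was 2.75 times the control level (2.42 to 3.14) and 1.62 times the TME level, and the TME level 1.70 times the control level (1.52 to 1.91), so that *polo* had 3 levels in steps of similar size. *aur*, the gene for Aurora A at centrosomes and spindle poles, was at 28.0 FPKM in tumor cells, 14.3 in TME cells and 10.2 in control cells. Its tumor level was 2.74 times the control (1.73 to 4.47) and 1.96 times the TME (1.47 to 2.54), and the interval of TME over control included 1 (0.937 to 2.20). *Nek2*, which encodes a kinase of the centrosome, was at 18.3 FPKM in tumor cells, 15.1 in TME cells and 9.29 in control cells, a tumor over control ratio of 1.96 (1.33 to 2.94) that falls just short of the rule.

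Within the chromosomal passenger complex, the scaffold genes differed from the control more than the kinase gene did. *Incenp*, the gene of the scaffold that holds the complex together, was at 82.4 FPKM in tumor cells, 73.5 in TME cells and 39.4 in control cells (tumor over control 2.09, 1.73 to 2.53). *borr*, the Borealin gene, was at 48.1 FPKM in tumor cells, 40.2 in TME cells and 23.0 in control cells (2.09, 1.46 to 3.02). *ial*, the gene for Aurora B, the kinase that corrects attachments of kinetochores, was at 56.6 FPKM in tumor cells, 45.7 in TME cells and 40.9 in control cells (1.39, 1.02 to 1.89). The intervals of the 3 genes overlap. All 3 had tumor over TME intervals that included 1, with ratios of 1.12 for *Incenp*, 1.20 for *borr* and 1.24 for *ial*.

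Of 4 spindle checkpoint genes, 0 passed the rule in tumor over control, which for so few genes is near the 12.4% of all genes. *BubR1*, which encodes a subunit of the mitotic checkpoint complex, was at 30.3 FPKM in tumor cells, 21.5 in TME cells and 21.9 in control cells (1.38 in tumor over control, 1.13 to 1.68). *mad2*, the gene for the inhibitor of the APC/C activator, was at 74.7 FPKM in tumor cells, 50.3 in TME cells and 39.5 in control cells (1.89, 1.32 to 2.75). *Bub3*, which encodes the adaptor that brings Bub1 and BubR1 to kinetochores, was at 83.7 FPKM in tumor cells, 95.1 in TME cells and 59.5 in control cells (1.41, 1.10 to 1.80), and was the only gene of the 4 with more RNA in TME cells than in tumor cells. *Bub1*, the gene for the checkpoint kinase, was at 13.2 FPKM in tumor cells, 6.70 in TME cells and 13.7 in control cells. Tumor and control thus had nearly the same *Bub1* level (0.966, 0.712 to 1.31), and the TME was 0.489 times the control (0.384 to 0.629).

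Among the APC/C genes, the activator genes *fzy* and *rap* lay on opposite sides of the control. *fzy* (*fizzy*), the Cdc20 gene, whose product activates the complex in metaphase and is the target of the checkpoint, was at 66.1 FPKM in tumor cells, 46.6 in TME cells and 32.0 in control cells (tumor over control 2.06, 1.64 to 2.64). *rap*, the table's name for *fzr* (*fizzy-related*), encodes the Cdh1 activator that keeps the complex on at the end of mitosis and in G1, when cells leave the cycle. It was at 15.6 FPKM in tumor cells, 15.4 in TME cells and 27.9 in control cells. Its ratio over the control was 0.558 for the tumor (0.408 to 0.759) and 0.552 for the TME (0.447 to 0.681), below 1 but not past the rule. The level of *fzy* was 4.24 times that of *rap* in the tumor, 3.02 times in TME cells and 1.15 times in control cells, another pair chosen after the values were seen.

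Among the core subunit genes of the APC/C, *cdc16* was at 21.2 FPKM in tumor cells, 9.34 in TME cells and 11.5 in control cells. Its tumor level was 2.27 times the TME level (1.78 to 2.88), past the rule, and 1.84 times the control level (1.29 to 2.62). *cdc23*, the gene of a neighboring subunit, was at 13.4 FPKM in tumor cells, 9.07 in TME cells and 11.4 in control cells, and the interval of its tumor over control ratio included 1 (1.17, 0.752 to 1.79). *pim* (*pimples*), the securin gene, was at 52.9 FPKM in tumor cells, 40.3 in TME cells and 32.5 in control cells (1.63, 1.12 to 2.42). *thr*, which encodes a partner of separase, was at 8.16 FPKM in tumor cells, 6.51 in TME cells and 7.50 in control cells, with intervals that included 1 in every comparison.

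Kinetochore genes were split. *Nuf2*, which encodes a subunit of the Ndc80 complex that binds microtubules, was at 35.9 FPKM in tumor cells, 24.8 in TME cells and 17.6 in control cells (tumor over control 2.05, 1.36 to 3.13). *Ndc80*, the gene of its partner in the same complex, was at 9.96 FPKM in tumor cells, 13.3 in TME cells and 10.5 in control cells (0.946, 0.585 to 1.53). *Nuf2* RNA was thus 3.61 times *Ndc80* RNA in the tumor, 1.87 times in TME cells and 1.67 times in control cells, a pair chosen after the values were seen. The tumor over control intervals of *Nuf2* and *Ndc80* overlap. *Mis12*, the gene of a subunit that links kinetochore and centromere, was at 13.5 FPKM in tumor cells, 9.56 in TME cells and 19.9 in control cells, on about 17 fragments in tumor cells, 75 in TME cells and 25 in control cells. Its ratio of TME over control was 0.479 (0.301 to 0.787), and that of tumor over control 0.678 (0.344 to 1.31). *cid*, the gene for the centromeric histone CENP-A, was at 7.45 FPKM in tumor cells, 3.62 in TME cells and 2.51 in control cells, on about 12 fragments in tumor cells, 35 in TME cells and 4 in control cells. It passed the rule in tumor over control (2.97, with an interval that includes 1 and reaches 12.6) and tumor over TME (2.06, 1.00 to 4.19), on the fewest fragments of any of the 14.

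The motor gene *Klp61F* had the largest ratio of all members in tumor over control. It encodes the kinesin-5 that slides antiparallel microtubules apart to build a bipolar spindle, and was at 89.6 FPKM in tumor cells, 46.1 in TME cells and 24.5 in control cells. These levels correspond to about 613 fragments in tumor cells, 1899 in TME cells and 162 in control cells and to ratios of 3.65 in tumor over control (3.07 to 4.37), 1.94 in tumor over TME (1.77 to 2.13) and 1.88 in TME over control (1.60 to 2.22). *ncd*, the gene of the minus-end kinesin-14 that pulls against kinesin-5, was at 56.9 FPKM in tumor cells, 42.7 in TME cells and 30.6 in control cells (tumor over control 1.86, 1.49 to 2.35). *sub* (*subito*), a kinesin-6 gene, was at 21.1 FPKM in tumor cells, 15.3 in TME cells and 12.4 in control cells (1.70, 1.14 to 2.49). *asp* (*abnormal spindle*), which encodes a protein that focuses spindle poles, was at 22.2 FPKM in tumor cells, 13.4 in TME cells and 12.2 in control cells (1.82, 1.47 to 2.27). In the reference annotation, 5 members share over 10% of their exon bases with genes on the other strand, namely *Klp61F* (11.0%), *mad2* (11.5%), *ncd* (15.3%), *Bub3* (15.9%) and *sub* (20.6%). Several others share less, among them *aur* with 9.70%, and *cdc16* shares 4.67% with a gene on its own strand. Whether the authors' counting used strand is not stated, so a share of these reads could belong to the neighbors.

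In the condensin complex, which compacts chromosomes, 1 of 4 genes, *barr*, passed the rule in tumor over control. A list of 4 genes does not set this count apart from the 12.4% of all genes called higher. *barr* (*barren*), the gene of the kleisin subunit, was at 47.3 FPKM in tumor cells, 29.2 in TME cells and 21.3 in control cells (tumor over control 2.22, 1.73 to 2.87). The 2 SMC subunit genes were nearly level between tumor and control, *SMC2* at 38.5 FPKM in tumor cells and 32.7 in control cells (1.18, 0.975 to 1.42) and *glu* (*gluon*, SMC4) at 35.9 FPKM in tumor cells and 30.7 in control cells (1.17, 0.980 to 1.39), with TME levels of 32.2 for *SMC2* and 26.3 for *glu*. *Cap-G*, a regulatory subunit gene, was at 32.3 FPKM in tumor cells, 20.1 in TME cells and 27.9 in control cells. Its TME level was 0.721 times the control level (0.619 to 0.845), while the tumor over control interval included 1 (1.16, 0.955 to 1.40).

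Genes of the midzone and of cytokinesis passed the rule for 3 of 6 in tumor over control (50.0%, beside 12.4% of all genes). *pav* (*pavarotti*), the gene of the kinesin in the centralspindlin complex, was at 74.8 FPKM in tumor cells, 39.6 in TME cells and 29.6 in control cells (2.52, 2.10 to 3.04). *tum* (*tumbleweed*), which encodes the RhoGAP partner of Pavarotti, was at 82.1 FPKM in tumor cells, 64.1 in TME cells and 48.6 in control cells (1.69, 1.41 to 2.03). The midzone kinesin gene *Klp3A* was at 28.8 FPKM in tumor cells, 19.3 in TME cells and 11.5 in control cells (2.51, 1.94 to 3.31). *feo* (*fascetto*), the gene of the bundling protein PRC1 on which Klp3A acts, was at 57.3 FPKM in tumor cells, 33.3 in TME cells and 36.1 in control cells (1.59, 1.29 to 1.97). At the furrow itself, *scra* (*scraps*), the anillin gene, was at 66.1 FPKM in tumor cells, 43.6 in TME cells and 31.2 in control cells (2.12, 1.70 to 2.67). *pbl* (*pebble*), which encodes the RhoGEF that starts the furrow, was at 38.3 FPKM in tumor cells, 36.5 in TME cells and 29.3 in control cells (1.31, 1.03 to 1.65). The products of *pav* and *tum* work in one complex, and the intervals of their ratios do not overlap.

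Within the tumor-bearing discs, few mitosis genes differed by 2-fold between the tumor and TME libraries, though most had somewhat more RNA in tumor cells. Of 38 members above the floor, 2 (*cdc16* and *cid*) passed the rule as higher in tumor over TME and 0 as lower, where 6.53% of all 7294 genes above the floor were called higher and 8.72% lower. The 2 calls are 5.26% of the members, near the share of all genes. A ratio above 1 was found for 35 of the 38 and for 61.7% of all genes above the floor. The median log2 ratio was 0.50 for the members and 0.08 over all genes, a gap of 0.41. Next below the rule were *Bub1* (1.97, 1.54 to 2.52), *aur* (1.96), *twe* (1.95, 1.03 to 3.62, under the floor), *Klp61F* (1.94) and *pav* (1.89, 1.69 to 2.11), and ratios below 1 were those of *Ndc80* (0.751, 0.512 to 1.04), *Bub3* (0.880, 0.742 to 1.03) and *CycB3* (0.946, 0.757 to 1.16), whose intervals all include 1.

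This comparison depends on how the libraries are scaled. Over all genes, 42.8% of the calls between tumor and TME were in the direction of the tumor, against 30.4% after scaling by the median ratio (a shift of -0.17 on the log2 scale) and 32.5% after scaling by the upper quartile (-0.13). The members' median stayed above 0 under both, at 0.33 and 0.37. The count of higher members was 1 under each, without *cid*. Hemocyte markers differed between the same 2 libraries, at 52.4 FPKM summed in tumor cells and 570.1 in TME cells, and neuronal markers were at 26.9 in tumor cells and 29.4 in TME cells. Their part in the result was not tested.

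Between the TME and the control, the members had slightly more RNA in TME cells, with individual genes on both sides. Of 37 members above the floor, 0 passed the rule as higher in TME cells and 2, *Bub1* and *Mis12*, as lower, beside 6.39% higher and 15.3% lower among all 7934 genes above the floor. The 2 lower genes are 5.41% of the members. For 25 of the 37 the ratio was above 1, as for 42.5% of all genes above the floor. The median log2 ratio was 0.31 for the members and -0.13 over all genes, a gap of 0.44. The highest ratios were those of *CycB* (1.90), *Klp61F* (1.88) and *Incenp* (1.87, 1.59 to 2.20), which pass 2 after scaling by the upper quartile (a shift of 0.14), where 0 members were lower. Scaling by the median ratio left *Mis12* as the 1 lower member. *Cap-G* (0.721) and *CycA* (0.874, 0.775 to 0.990) had less RNA in the TME, with intervals below 1, and so did *glu* (0.858, 0.745 to 0.988). The intervals of *CycA* and *glu* end close to 1. Their ratios rose to 0.909 and 0.892 after scaling by the median ratio, and to 0.962 and 0.944 after scaling by the upper quartile. How far these 2 genes lie below 1 thus depends on the scaling.

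All 9 neuronal markers were lower in the TME than in the control as well (summed FPKM 29.4 in TME cells and 391 in control cells, with *elav* at 7.90 in TME cells and 57.3 in control cells), whereas the hemocyte markers were at 570.1 FPKM in TME cells and 515 in control cells. The eye-antennal disc markers had a median log2 ratio of 0.66. Of 7 genes of the retina behind the furrow, *gl* (2.54) and *lz* (3.40) passed the rule as higher in TME cells. The ratio was above 1 for 5 of the 7, and below 1 for *chp* (0.941) and *boss* (0.801). The tracheal genes *Gasp* (4.67) and *pio* (2.60) were higher, while *trh* (0.417) and *btl* (0.817) had ratios below 1. The part of these marker genes in the result was not tested.

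**Figure D3:**
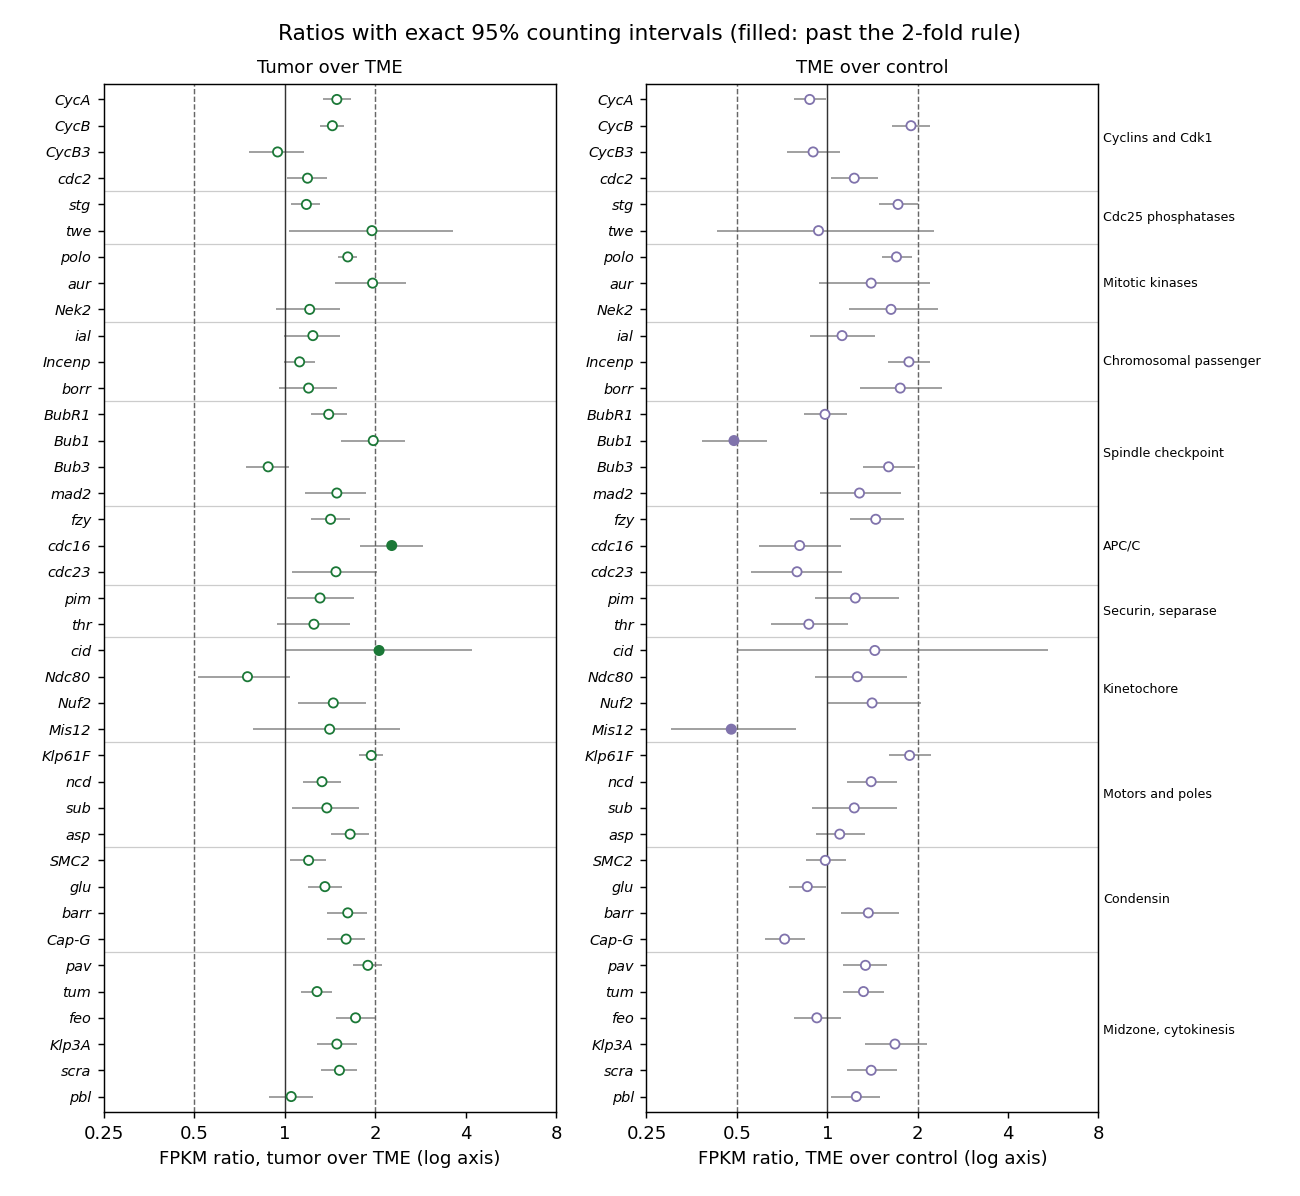
FPKM ratios of 39 genes for tumor over TME (left) and TME over control (right), on log axes with exact 95% counting intervals; filled circles passed the 2-fold rule, and dashed lines mark 0.5 and 2. On the left *cdc16* (2.27) and *cid* (2.06) are filled, and on the right *Bub1* (0.489) and *Mis12* (0.479).

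A wider list of 98 other mitosis genes in the table, from centrosome, cohesin, further kinetochore, checkpoint, spindle and cytokinesis groups, was examined in the same way. In tumor over control 15 of 91 genes above the floor were higher (16.5%, near the 12.4% of all genes) and 0 lower (20.2% of all genes), with a median log2 ratio of 0.33, a gap of 0.40 to all genes. The passing genes are given as values only, and the spindle group held 6 of them among 17 genes above the floor (35.3%, beside 12.4%). They include the augmin genes *dgt4* (19.0 FPKM in tumor cells and 5.66 in control cells, 3.35, 1.30 to 10.2) and *dgt5* (15.9 FPKM in tumor cells and 5.99 in control cells, 2.66, 1.60 to 4.54), whose products nucleate microtubules within the spindle. *mud*, the NuMA gene, which orients spindles, was at 34.6 FPKM in tumor cells and 13.4 in control cells (2.59, 2.13 to 3.15).

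Of the other checkpoint genes 3 of 6 passed (50.0%), and of the other kinetochore genes 1 of 8 (12.5%), beside 12.4% of all genes. *Spindly*, which encodes a factor that brings dynein to kinetochores, was at 14.6 FPKM in tumor cells and 6.57 in control cells (2.22, 1.40 to 3.59). For the genes of the complex it binds, *rod* was at 24.2 FPKM in tumor cells and 11.9 in control cells (2.03, 1.65 to 2.52) and *mit(1)15*, the gene for Zw10, at 25.4 FPKM in tumor cells and 12.5 in control cells (2.03, 1.45 to 2.86). *cmet*, a kinesin gene of the CENP-E family, was at 26.2 FPKM in tumor cells and 12.1 in control cells (2.16, 1.77 to 2.66). Ratios of 6 of the 8 kinetochore genes were not above 1, such as that of *cal1*, whose product loads the centromeric histone, at 14.5 FPKM in tumor cells and 23.1 in control cells (0.626, 0.479 to 0.826), a gene chosen after its values were seen.

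In the remaining groups with passing genes, the counts were 1 of 11 for Cdk1 control (9.09%) and 1 of 9 for the APC/C (11.1%). They were 1 of 8 for cohesin (12.5%) and 2 of 9 for cytokinesis (22.2%), beside 12.4% of all genes. Lists this small do not set these shares apart from that of all genes. *gwl* (*greatwall*), whose kinase restrains the phosphatase that opposes Cdk1, was at 19.9 FPKM in tumor cells and 7.58 in control cells (2.62, 1.79 to 3.91). *shtd* (*shattered*), the APC1 gene, was at 24.1 FPKM in tumor cells and 11.7 in control cells (2.06, 1.67 to 2.55). *san* (*separation anxiety*), which encodes an acetyltransferase needed for sister cohesion, was at 71.9 FPKM in tumor cells and 35.1 in control cells (2.05, 1.40 to 3.04). Among cytokinesis genes the formin gene *dia* was at 45.4 FPKM in tumor cells, 16.1 in TME cells and 11.1 in control cells (tumor over control 4.08, 2.78 to 6.25), and the citron kinase gene *sti* at 57.0 FPKM in tumor cells and 27.1 in control cells (2.11, 1.83 to 2.43). *dia* alone of the 98 also passed the rule as higher in tumor over TME, and its formin also builds actin outside cytokinesis.

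By group, the median log2 ratio of tumor over control was 0.87 for the other checkpoint genes, 0.67 for cytokinesis and 0.65 for the spindle. It was 0.34 for centrosomes (0 of 18 higher), -0.07 for cohesin (1 of 8), 0.02 for the APC/C (1 of 9), -0.23 for kinetochores (1 of 8) and -0.15 for condensin (0 of 3). For 35 genes of G1-S and DNA replication, 10 were higher (28.6%, beside 12.4% of all genes) and 1 lower (2.86%, beside 20.2%) in tumor over control, with medians of 0.68 in tumor over control, 0.30 in tumor over TME and 0.43 in TME over control. No test between lists was run, and these lists differ in their mean level and in how they were drawn up.

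**Figure D4:**
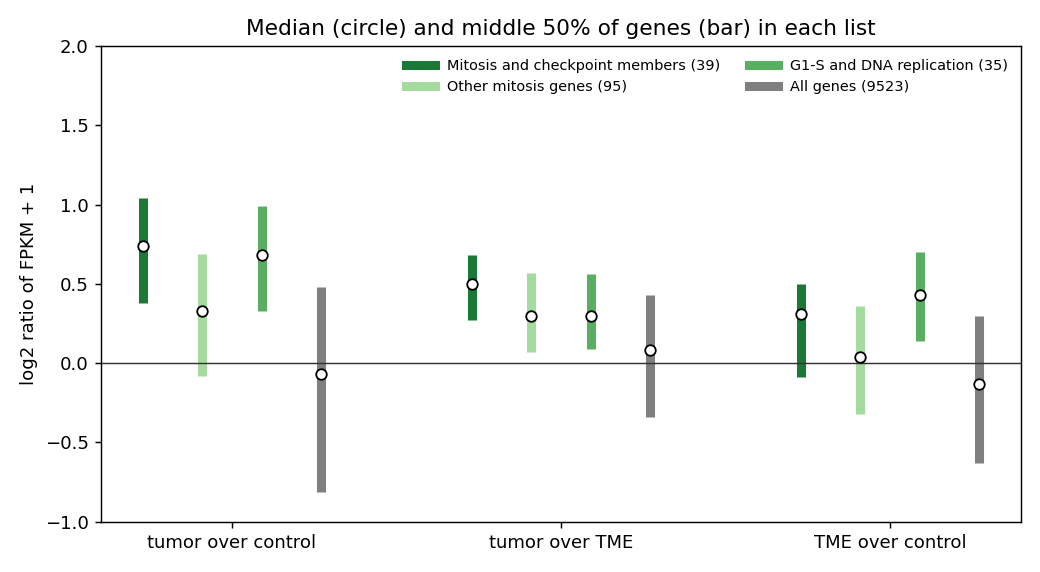
Median (circle) and middle 50% (bar) of log2 ratios of FPKM + 1 for the 39 members, 95 other mitosis genes, 35 G1-S and DNA replication genes and all 9523 genes with a mean of at least 1 FPKM, in 3 comparisons. The members' circles lie at 0.74, 0.50 and 0.31, and those of all genes at -0.07, 0.08 and -0.13.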

How the data were processed

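RNA from eye-antennal discs was profiled in 3 libraries, 1 per group. The sample labels give Trizol extraction and the series design gives FACS sorting. The paper's methods give discs isolated by hand and Qiagen RNAmini kits. After TruSeq preparation and MiSeq sequencing, the authors deposited FPKM values per gene, made with the Tuxedo suite on the genome release named in the methods. The annotation and the use of strand were not given in the sources used here. Column headings give a date for tumor and TME and none for the control, so whether the control was prepared with them is not known from the headings. Any such difference would enter every ratio over the control.

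Members were matched by symbol, and the members and lists were chosen with earlier results of these data known. All members found are named, and up to 3 genes per list of other mitosis genes past the rule in tumor over control, by largest ratio. Lists count genes listed at 0, and medians use genes with a mean of at least 1 FPKM and a pseudocount of 1, which understates ratios of low genes.

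Fragments per gene were estimated from FPKM steps of genes with a single transcript of 400 to 4000 nt in the Ensembl release 115 annotation of BDGP6, which is not the authors' release and gave lengths and overlaps, no coordinates. Of low values, 81.9% (tumor), 77.4% (TME) and 81.0% (control) fell within 0.1 of a whole fragment, where chance gives 20.0%. Identifiers of 14927 genes (95.7%) matched. Intervals use the shortest transcript, and 19 of the 39 members have 1 transcript. The depth fit and the rule were tested on simulated data. Alternatives covered the ratio (1.5 and 3), the floor (none and 10), pseudocounts, the mean filter and scaling by median ratio or upper quartile. Tools were Python 3.11.15, pandas 2.3.3, scipy 1.17.1, numpy 2.4.6 and matplotlib 3.10.9.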

Additional observations from a re-analysis of the deposited data

How the results depend on the processing

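Higher members in tumor over control numbered 14, and 23 at a ratio of 1.5, 1 at a ratio of 3 and 8 with median-ratio scaling. In tumor over TME the count of 2 became 12 at 1.5, 0 at 3, and 1 with a floor of 10 FPKM, with median-ratio scaling, with upper-quartile scaling and with 1 added to both values. In TME over control 0 higher members became 9 at 1.5 and 3 with upper-quartile scaling, and 2 lower members became 0 at 3, 1 with median-ratio scaling, and 0 with upper-quartile scaling or with 1 added. Members' medians kept their sign under the pseudocounts, mean filters and scalings run, at 0.64 to 0.84 in tumor over control, 0.33 to 0.50 in tumor over TME and 0.27 to 0.44 in TME over control. Counting *fzr* as *rap*, an alternative added after seeing the data, changed no count. Of 351 recomputed single ratios, 344 stayed within their counting interval's half-width and 7 did not, and no called ratio changed direction. The tumor and control libraries are the shallow ones, and *cid* and *twe* rest on under 20 fragments in both. No paired analysis was possible because each group has 1 library.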

Other observations

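The genes of the MuvB and dREAM complexes, which control transcription of many mitotic genes in *Drosophila*, had a median log2 ratio of 0.25 in tumor over control. Of 10 genes 0 passed the 2-fold rule in either direction, beside 12.4% higher and 20.2% lower among all genes, a difference too small to read in a list of 10. *Myb* was at 79.5 FPKM in tumor cells, 61.5 in TME cells and 63.8 in control cells, and its ratio of tumor over control was 1.25 (1.07 to 1.46). *mip120*, the gene of a subunit that binds DNA, was at 18.0 FPKM in tumor cells, 12.6 in TME cells and 21.3 in control cells, and the interval of that ratio included 1 (0.843, 0.638 to 1.11).

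The 39 members lie on 5 chromosome arms, with 11 on 2L, 10 on 2R, 7 on each arm of chromosome 3 and 4 on X. Aurora A and Aurora B differed in their balance, with *aur* RNA at 0.494 times *ial* RNA in the tumor, 0.313 times in TME cells and 0.250 times in control cells. The tumor over control intervals of *aur* (1.73 to 4.47) and *ial* (1.02 to 1.89) overlap. For the opposed motors, *Klp61F* RNA was at 1.57 times *ncd* RNA in the tumor, 1.08 times in TME cells and 0.802 times in control cells. Both pairs were chosen after the values were seen.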
